A study of Mus musculus with 9 samples.

Results

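Homologous recombination and the Fanconi anaemia pathway were described in D2.0R cells through 33 named genes, looked up by symbol in the table of counts. The list holds pathway members set by name and not by measured level, but it was chosen with earlier results of these data known. All 33 were found, each on 1 row, among 55487 mouse genes. D2.0R (also written D2.OR) is a mouse mammary adenocarcinoma line, and its cells were stained with CellTrace Far Red (CTFR), a dye diluted at each division, kept for 1 week in DMEM with 2% serum and sorted into cells that retained the dye and cells that had lost it. The labels speak of CTFR-positive cells, CTFR-negative cells and bulk, but tie none of the 9 polyA RNA libraries to any of the 3, so 0 of 9 libraries carry a group here. All 9 share the line, medium and culture time, no genotype or drug differs between them in the labels, and it is not stated whether they came from separate cultures, so a p-value measures only the spread between these libraries. Libraries are called L1 to L9, by the running number of their title. Values are given library by library, and no library is read as quiescent or proliferating.

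Homologous recombination repairs DNA double-strand breaks by copying an intact sister strand, which is available once DNA has been replicated. The MRE11-RAD50-NBN complex and the kinases ATM and ATR sense the damage, CtIP (the product of Rbbp8) helps trim the ends and BRCA1, PALB2 and BRCA2 act in turn to start the search for the intact copy. The Fanconi pathway clears crosslinks between the strands: a core complex attaches ubiquitin to the paired proteins FANCD2 and FANCI, which then recruit nucleases and recombination proteins. Many of these genes are known to be transcribed most in S and G2 phase, and inherited loss of BRCA1, BRCA2 or PALB2 is a known cause of breast cancer.

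Library totals ran from 18732737 estimated counts in L9 to 41243036 in L7, and the 33 genes together held between 8766 counts in L9 and 19730 in L8, or 0.0397% to 0.056% of a library. Mitochondrially encoded genes held 1.31% to 2.05% of counts, and 0 of 36 pairs of libraries had identical counts. Of the markers listed for the line, Krt8 (146 to 677 CPM, counts scaled to a common library size), Krt18 (37.1 to 154 CPM) and Vim (3553 to 5891 CPM) were abundant, Cdh1 lay at 5.41 to 13.3 CPM, and Epcam never passed 0.224 CPM. The 4 NK cell markers were at 0 in all libraries and the 5 leukocyte markers summed to at most 0.209 CPM. Of 4 endothelial markers only Vwf passed 1 CPM, at 1.12 to 4.32 CPM, and the 2 adipocyte markers summed to 0.392 to 2.31 CPM. The 6 epithelial markers summed to 226 CPM in L6 and to 800 CPM in L8. L8 was the library in which most of the repair genes described here were highest. Of the 4 epithelial markers that could be tested, 3 were highest in L8, but Krt18 was highest in L1 and lowest in L9. Krt8 made up most of the sum in L8. Of the mesenchymal markers, Col1a1 was highest in L8 (4316 CPM), Vim in L5 and Fn1 in L1, with Fn1 lowest in L8 (9708 CPM). The part of these marker differences in the results was not tested. In bulk RNA, fewer cells of one kind and less RNA per cell cannot be told apart.

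The ranges of the 33 genes over the libraries ran from 14.8-fold (Fancd2) down to 1.25-fold (Nbn), with no gap at the 2-fold mark, where Rad51c (0.94 on the log2 scale) and Xrcc3 (1.01) stand on its 2 sides. A gene is called variable here when its 9 counts scatter beyond Poisson error (chi-square test of dispersion, Benjamini-Hochberg adjusted p under 0.05 over 13279 genes) and its highest and lowest libraries lay at least 1 apart on the log2 CPM scale, that is 2-fold. By that rule 20 of the 33 genes were variable (60.6%), against 30.9% of all genes tested. The median range of the 33 was 1.09 on the log2 scale, against 0.71 over all genes. The dispersion test alone separates little, since 32 of the 33 and 12513 of the 13279 passed it, so the size of the range decides the call. The level of a gene matters too. Among genes with a mean of 0.5 to 5 CPM, 14 of 16 members (87.5%) and 69.0% of all genes were variable. From 5 to 20 CPM it was 4 of 9 (44.4%) against 32.5%, and from 20 CPM upward 2 of 8 against 15.1%. These level classes were chosen after the values were seen.

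L8 held the highest value of 21 of the 33 genes (63.6%), against 19.5% of all genes tested. The lowest values were spread, with 8 genes lowest in L1, 7 in L6, 6 in L3 and 6 in L4. The order of libraries was set beside that of Mki67, the gene of the proliferation antigen Ki-67, which stood at 5.57 CPM in L1, 63.4 in L2, 4.97 in L3, 9.76 in L4, 107 in L5, 9.12 in L6, 28.6 in L7, 153 in L8 and 23.5 in L9. In 13 of the 33 genes (39.4%) the 3 highest libraries were L8, L5 and L2 in that order, as in Mki67, against 7.97% of all genes.

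**Figure D1:**
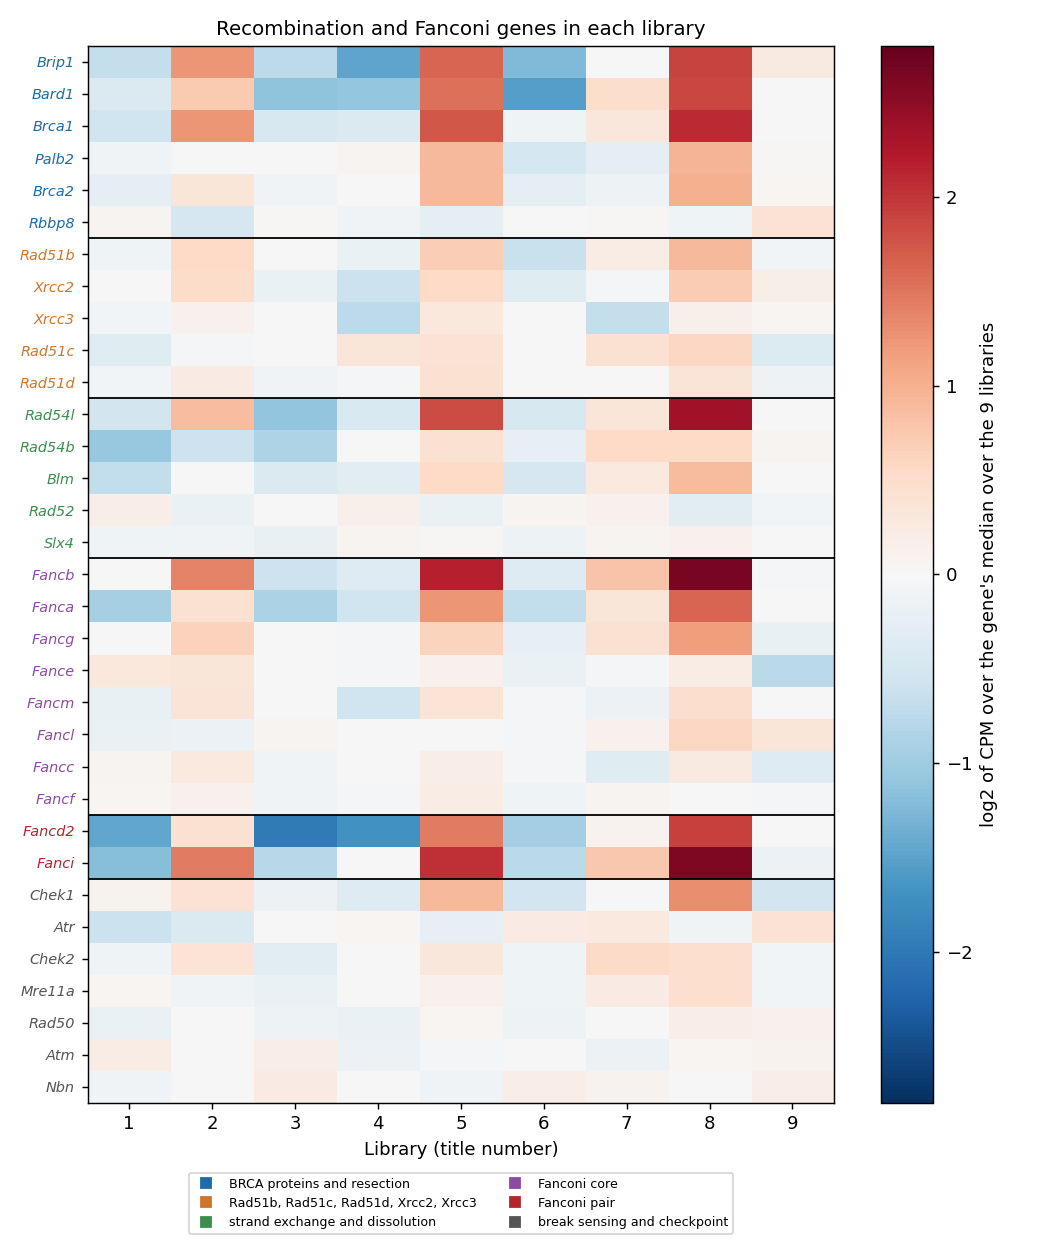
Heat map of the 33 genes (rows, grouped and coloured by role, widest range first in each group) in the 9 libraries (columns, by title number); colour is the log2 of CPM over the gene's own median across libraries. L2, L5 and L8 are red for Brca1, Bard1, Brip1, Rad54l, Fanca, Fancb and the Fancd2-Fanci pair, while Nbn, Atm, Slx4 and Fancf are pale throughout.

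The title numbers can be read as 3 consecutive runs (1 to 3, 4 to 6, 7 to 9) or as 3 places within a run (1, 4, 7; 2, 5, 8; 3, 6, 9). These are arrangements of title numbers, not groups of the study, and no test was made on them. In 17 of the 33 genes (51.5%) L2, L5 and L8 all lay above the other 6, against 20.8% of all genes tested. They were Brca1, Brca2, Bard1, Brip1, Rad51b, Rad51d, Xrcc2, Xrcc3, Rad54l, Fanca, Fancb, Fancc, Fancg, Fancm, Fancd2, Fanci and Chek1. Rad52 and Rbbp8 showed the reverse, with L2, L5 and L8 below the other 6, as did 17.4% of all genes. In the other arrangements the counts were 0 to 2 of 33. Rad54b was lowest in L1 to L3 (2.84% of all genes) and Fancl highest in L7 to L9 (3.67%). Rad52 was highest in L1, L4 and L7 (6.51%), and Xrcc3 and Fancm were lowest there (4.13%). Nbn was highest (4.13%) and Fancf lowest (4.01%) in L3, L6 and L9. No member had L1 to L3 above the rest (4.13% of all genes), L4 to L6 above (0.0452%) or below (0.0602%), or L7 to L9 below (3.78%).

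Of the genes that encode BRCA1, BRCA2, their partners and the end-trimming factor CtIP, 5 of 6 were variable. Brca1, a ubiquitin ligase and scaffold of repair whose values are given although 2 others of its role ranged wider, stood at 3.47 CPM in L1, 12.2 in L2, 3.78 in L3, 3.84 in L4, 17.2 in L5, 4.68 in L6, 6.38 in L7, 21.8 in L8 and 5.12 in L9. From bottom to top this was 6.27-fold (95% interval 5.09 to 7.80, counting error only), and L2, L5 and L8 did not overlap with the rest. Bard1, which forms the ligase together with Brca1, ran through 1.20, 2.66, 0.734, 0.756, 4.68, 0.547, 2.24, 5.87 and 1.60 CPM in L1 to L9. The range of Bard1 was 10.7-fold (6.63 to 18.5), on 18 counts in the lowest library. Brip1, the helicase FANCJ that binds BRCA1, stood at 1.62, 6.04, 1.55, 0.920, 7.92, 1.09, 2.56, 9.54 and 3.04 CPM in L1 to L9, a 10.4-fold range (7.04 to 15.8). Brip1 and Bard1 thus followed the same high libraries as Brca1, with wider ranges whose intervals overlapped that of Brca1.

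Brca2 ranged less, from 6.38 CPM in L6 through a median of 7.66 to 15.2 in L8 (2.39-fold, 2.03 to 2.81). Palb2, the bridge between BRCA1 and BRCA2, had a median of 1.83 CPM and 3.46 and 3.52 CPM in L5 and L8, but only 1.83 in L2. For Palb2, L2 was thus the median library, whereas it was the third highest for Brca1 and Brca2. Rbbp8, whose product CtIP trims broken ends, was not variable and ran the other way, at 18.2, 12.6, 17.8, 16.2, 14.5, 17.3, 17.8, 16.0 and 22.9 CPM in L1 to L9.

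The 5 genes Rad51b, Rad51c, Rad51d, Xrcc2 and Xrcc3, whose products work together in recombination complexes, were flatter, with 3 variable and a median range of 1.01 on the log2 scale. Xrcc2 ran through 3.16, 4.53, 2.79, 2.07, 4.64, 2.49, 3.07, 5.20 and 3.52 CPM in L1 to L9, a 2.51-fold range (1.88 to 3.40). Rad51b was the faintest of the 33 per kilobase, at 0.516, 0.831, 0.565, 0.49, 0.907, 0.365, 0.654, 1.06 and 0.534 CPM in L1 to L9, with 10 counts in L9. Its dispersion test gave an adjusted p of 0.0106, which was 0.109 without L8 and 0.0723 when a coefficient of variation of 10% between libraries was allowed for. Xrcc3 was lowest in L4 (2.37 CPM) and next in L7 (2.49 CPM), and topped out at 4.82 CPM in L5. The range of Xrcc3, 1.01 on the log2 scale, was 0.95 without L4 and 0.88 without L5, under the 2-fold mark. Rad51d, the best expressed of these 5, stood at 20.0, 24.7, 19.6, 20.2, 28.3, 20.9, 21.1, 26.9 and 18.9 CPM and was not variable (1.49-fold, 1.32 to 1.70), although L2, L5 and L8 still lay above the others. Rad51c, with a median of 4.04 CPM, ranged 1.94-fold.

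Among the genes of strand exchange and of the unlinking of joined DNA, 3 of 5 were variable. Rad54l, a motor that helps the broken strand invade the sister, stood at 0.894, 2.35, 0.593, 0.953, 4.54, 0.942, 1.61, 6.57 and 1.28 CPM in L1 to L9. That was an 11.1-fold range (7.09 to 18.2), with L2, L5 and L8 on top. Its relative Rad54b did not share that order: it was 2.06, 2.89, 2.37, 4.30, 5.79, 3.65, 6.33, 6.32 and 4.54 CPM in L1 to L9, highest in L7 and lowest in L1 to L3 (3.07-fold, 2.31 to 4.14). Blm, the helicase lost in Bloom syndrome, had a median of 5.30 CPM and reached 7.85 and 9.82 CPM in L5 and L8 against 3.27 in L1.

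The remaining genes of this role ranged less. Slx4, the scaffold of nucleases also known as FANCP, was not variable at 30.2, 30.9, 28.7, 34.7, 34.0, 30.05, 34.9, 35.9 and 33.0 CPM (1.25-fold, 1.15 to 1.36). Rad52, a strand annealing gene, was not variable either, but was lowest in L8 (8.75 CPM) and highest in L1 (12.4 CPM).

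The core complex of the Fanconi pathway was mixed, with 5 of 8 genes variable. Fancb and Fanca ranged widest. Fancb, a scaffold of the catalytic module, stood at 0.550, 1.43, 0.367, 0.427, 2.48, 0.425, 0.955, 3.50 and 0.534 CPM in L1 to L9, a 9.53-fold range (5.37 to 18.4) with 13 counts in the lowest library. Fanca, the gene most often mutated in Fanconi anaemia, stood at 1.68, 4.30, 1.72, 2.17, 7.54, 1.98, 4.02, 9.90 and 3.20 CPM, a 5.88-fold range (4.35 to 8.09). In both, L8, L5, L2 and L7 were the 4 highest, in that order.

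Fancg, which binds FANCA, ranged 2.62-fold, from 2.98 CPM in L6 to 7.80 in L8, and without L8 its range was 0.87 on the log2 scale, under 2-fold. Fancm, the translocase that brings the core to DNA, ranged 2.05-fold, from 3.42 CPM in L4 to 7.02 in L8, and its range was 0.70 without L4 and 0.93 without L8. Fance, which contacts FANCD2, had another pattern: 30.6, 31.5, 25.04, 24.0, 27.1, 22.1, 24.1, 28.8 and 14.8 CPM in L1 to L9. Its call rested on L9, without which the range fell from 1.09 to 0.51 on the log2 scale.

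Of the other core genes, Fancl, the ubiquitin ligase itself, had a median of 4.82 CPM and ranged from 4.26 to 7.24 CPM, and Fancc from 3.52 to 5.41 CPM, neither of them variable. Fancf, an adaptor of the core and the best expressed per kilobase among its genes that were not variable, stood at 7.53, 7.91, 6.80, 7.16, 8.45, 6.69, 7.64, 7.30 and 7.15 CPM. Fancf was the single member whose counts did not pass the dispersion test (adjusted p 0.255).

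The substrate pair of the core complex had the widest ranges of all 33 genes. Fancd2 stood at 0.894 CPM in L1, 3.32 in L2, 0.621 in L3, 0.756 in L4, 6.74 in L5, 1.28 in L6, 2.64 in L7, 9.20 in L8 and 2.45 in L9. The range of Fancd2 was 14.8-fold (95% interval 9.62 to 24.0), with 22 counts in the lowest library. Fanci stood at 0.447, 2.81, 0.593, 1.02, 4.22, 0.608, 1.71, 6.21 and 0.907 CPM in L1 to L9, a 13.9-fold range (7.96 to 26.5). Both genes had their 4 highest values in L8, L5, L2 and L7.

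The genes that sense breaks and signal them mostly stayed under the 2-fold mark, with 2 of 7 variable (28.6%, near the 30.9% of all genes tested) and a median range of 0.66 on the log2 scale. Chek1, the checkpoint kinase activated by ATR, was variable, at 2.75, 3.41, 2.31, 2.00, 4.89, 1.79, 2.59, 6.41 and 1.81 CPM in L1 to L9 (3.57-fold, 2.67 to 4.84). Atr was variable as well but in another order, at 51.0, 58.6, 77.7, 81.0, 66.7, 91.7, 93.5, 72.4 and 103 CPM. Atr was thus lowest in L1, L2, L5 and L8 and highest in L9, and its range of 1.01 on the log2 scale dropped under 1 without L1 (0.81) or L9 (0.88). An antisense gene, Gm16794, shares exon sequence with Atr and was likewise at its minimum, 2.13 CPM, in L1 and at its maximum, 6.30 CPM, in L9. Without a stated strand setting the reads of this pair cannot be separated.

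Nbn, the best expressed member per kilobase of exon, stood at 33.1, 34.8, 41.2, 35.3, 33.1, 40.4, 37.7, 35.1 and 40.3 CPM in L1 to L9, a 1.25-fold range (1.15 to 1.35). Rad50, which tethers broken ends, lay between 59.2 and 77.0 CPM, Mre11a, the nuclease of the same complex, between 18.7 and 29.5 CPM, and Atm between 38.4 and 49.9 CPM. Chek2, the kinase that ATM activates, ranged 1.79-fold, from 6.46 CPM in L3 to 11.6 in L7. None of these 5 genes was variable.

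**Figure D2:**
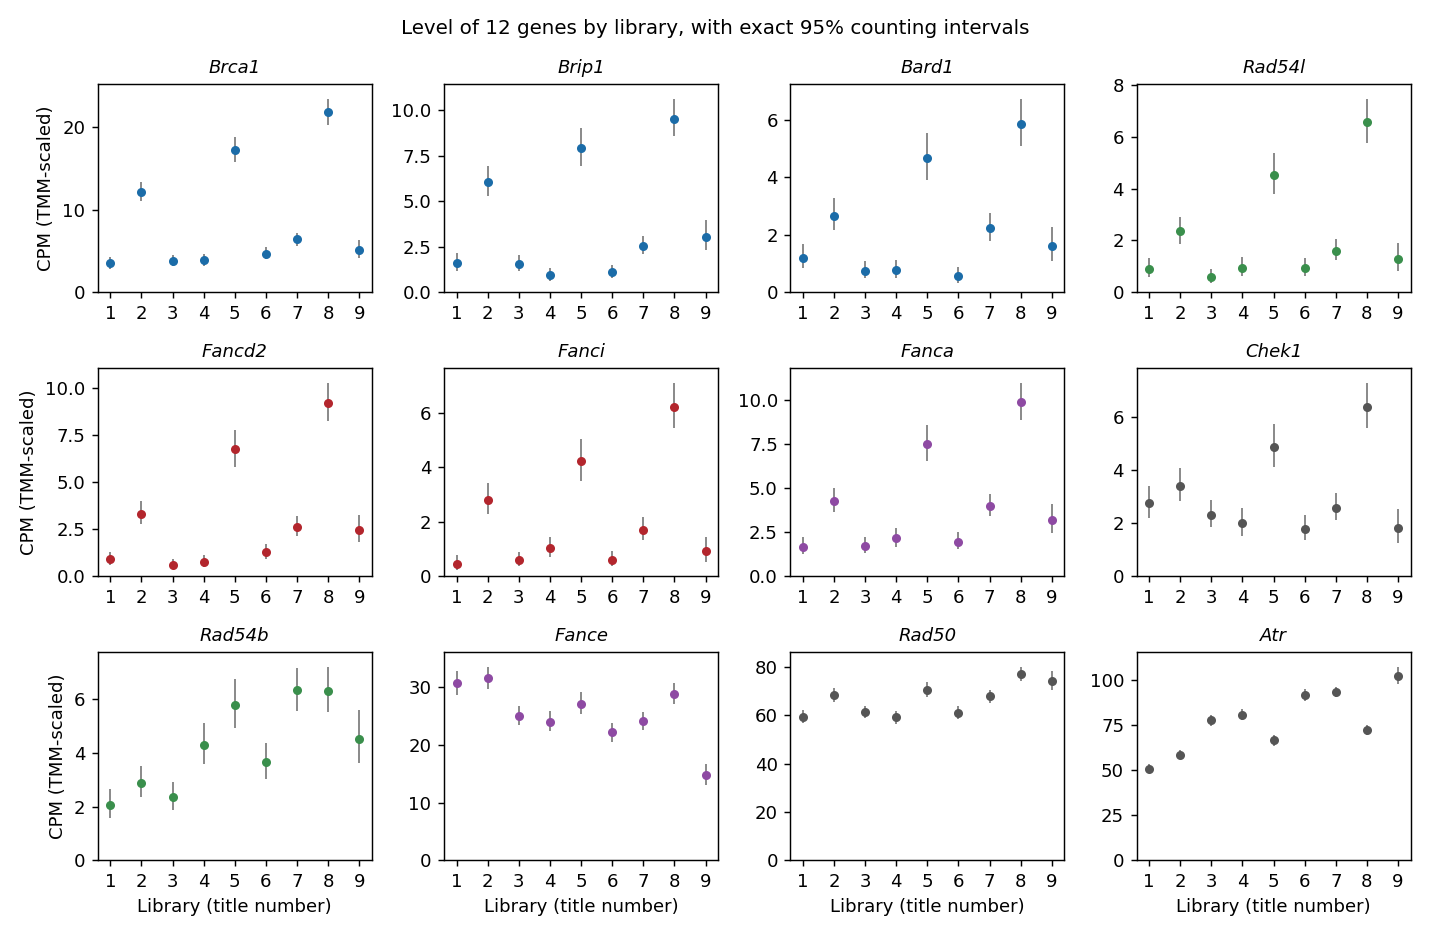
Level of 12 of the genes (CPM after TMM scaling, y axis from 0) in each library (x axis, title number), with exact 95% Poisson intervals that cover counting error only. The first 8 panels have their 3 highest values in L2, L5 and L8, whereas Rad54b is low in L1 to L3, Fance low in L9 and Atr low in L1.

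The variable genes were mostly the fainter ones. Per kilobase of summed exon, the 13 genes that were not variable had a median level of 3.61 CPM (0.538 to 13.9), against 0.519 CPM (0.150 to 7.84) for the 20 variable genes. At the top stood Nbn with 13.9 CPM per kilobase, Rad50 with 12.6 and Fance with 7.84, and at the bottom Fanci with 0.176, Rad54l with 0.166 and Rad51b with 0.150. Counting noise is larger for faint genes, and the prior count of 2 narrows their ranges on the log2 scale. The summed exon length counts every annotated exon once, so it overstates the transcript of genes such as Atr (23629 bases).

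**Figure D3:**
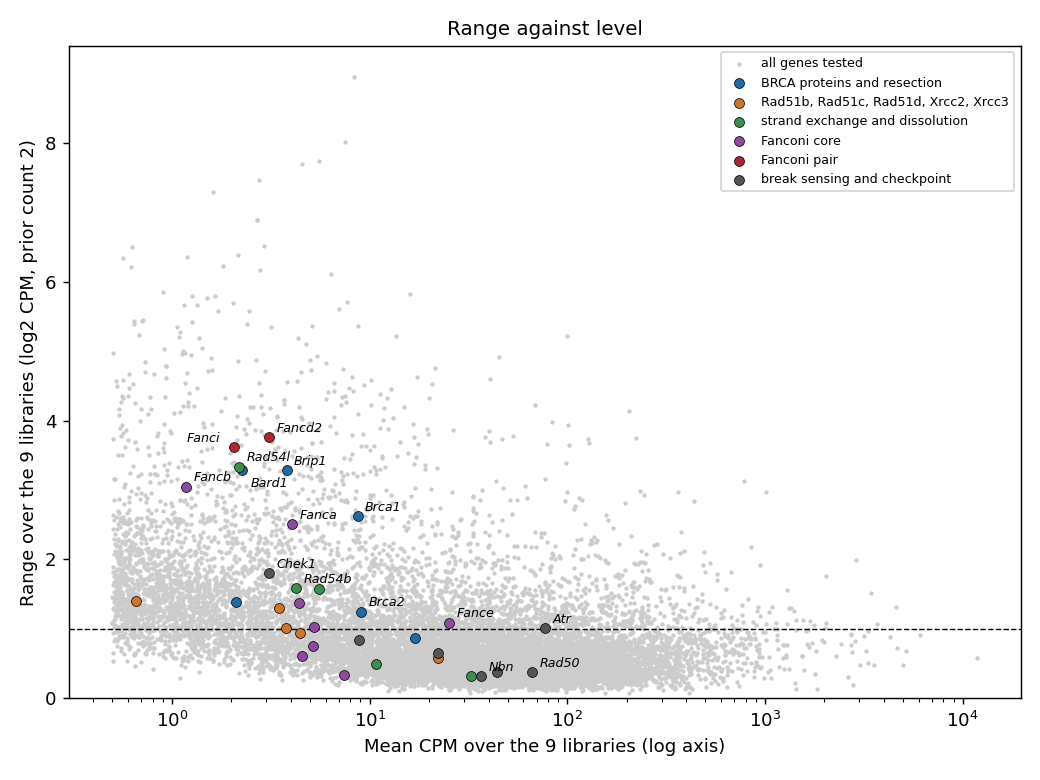
Range over the 9 libraries (y axis, log2 CPM) against mean level (x axis, CPM, log axis) for 13279 genes (grey) and the 33 genes coloured by role; the dashed line marks 2-fold. Fancd2 and Fanci lie highest, at 3.76 and 3.62, the widest of the 33, while Nbn, Rad50 and Atm lie near the lower edge.

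Further genes of these pathways, listed without regard to direction but with results of these data known, were variable in 17 of 49 cases (34.7%), near the 30.9% of all genes, with a median range of 0.68 on the log2 scale. Of the 49, 29 (59.2%) were highest in L8, against 19.5% of all genes tested. On the log2 scale with its prior count, the widest ranges were those of Rad51ap1, a gene of strand invasion, from 0.254 CPM in L3 to 6.43 in L8 (25.3-fold, 13.1 to 56.1), and of Polq, the polymerase of an alternative end joining route, with 0.339 CPM in L3 and 7.33 in L8. By plain ratio Rmi2, a gene of the BLM complex named after its values were seen, went further, from 0.0565 CPM (2 counts) to 1.68 CPM, or 29.7-fold (7.88 to 251). The best expressed per kilobase were Sfr1, a recombination gene, at 112.5 to 164 CPM, and Babam1, of the BRCA1-A complex, at 72.35 to 95.35 CPM. End joining, the repair route that needs no sister strand, had 1 variable gene of 12 (8.33%, against 30.9% of all genes tested). These 12 were not matched by level to the 33, and level bears on the call. Polq, which was variable, was counted among the 49 further genes and not among these 12, so the share depends on where it was placed. The variable gene of the 12 was Paxx, from 2.14 CPM in L9 to 5.65 in L8. The other 11 ranged between 1.21-fold (Xrcc5, a subunit of the Ku end-binding complex) and 1.93-fold (Xrcc6, its partner), both named after their values were seen.

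The spans of the Fanconi pair and of the genes around BRCA1 lay between those of 2 reference lists of the cell cycle. Relative to each gene's own median, the 2 genes of the Fanconi pair had a median level of -1.24, 0.92, -1.30, -0.81, 1.71, -0.80, 0.41, 2.21 and -0.08 on the log2 scale in L1 to L9, a span of 3.51. For 12 genes of mitosis the span of the same measure was 4.16, for 18 genes of G1 and S phase 1.21, for the 6 genes around BRCA1 1.78 and for 12 end joining genes 0.24. All 12 mitosis genes and 9 of the 18 G1/S genes had L2, L5 and L8 above the rest, against 4 of the 6 genes around BRCA1, 4 of the 5 genes Rad51b, Rad51c, Rad51d, Xrcc2 and Xrcc3, 1 of 5 strand exchange genes, 5 of 8 core genes, both of the Fanconi pair and 1 of 7 sensing genes. The same held for 20 of the 49 further pathway genes and 3 of the 12 end joining genes, beside 20.8% of all genes tested. The G1/S list was itself split: Cdt1, a replication licensing gene named after its values were seen, was lowest in L2 (18.8 CPM), the library with the third highest Brca1 value.

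Genes whose products bind each other were next set against each other within each library, where the scaling of libraries cancels. The ratio of Brca2 to Palb2 counts kept within 3.76 (L1) and 5.27 (L2), a 1.40-fold span, and the counting intervals of these extremes (2.74 to 5.25 and 4.02 to 6.99) overlapped. Mre11a to Rad50 spanned 1.40-fold, from 0.274 to 0.383, and Rad50 to Nbn 1.47-fold, from 1.49 to 2.19, in both cases with intervals that did not overlap. Fancd2 to Fanci ran from 0.742 in L4 (0.413 to 1.31) to 2.71 in L9 (1.52 to 5.04), and these intervals did not overlap. That was a span of 1.87 on the log2 scale, against 3.89 and 3.80 for the genes alone. All these extremes were picked by their values, so the separation of their intervals is not a test.

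Brca1 to Bard1 had its highest ratio, 8.56, in L6 (5.24 to 14.8) and its lowest, 2.85, in L7 (2.23 to 3.68), and the span of 1.58 on the log2 scale fell to 0.85 without L6. Rad51c to Xrcc3, whose products form a complex, was 2.15 and 2.18 in L4 and L7 and between 0.753 and 1.37 in the others. Fancb to Fancl spanned 7.12-fold, from 0.0722 in L3 to 0.515 in L5. Atr to its target kinase Chek1 ranged from 11.3 in L8 (9.87 to 13.0) to 56.6 in L9 (40.3 to 82.0). On the log2 scale that ratio spanned 2.32, more than Atr (1.01) or Chek1 (1.84) alone. The same held for Rad51c to Xrcc3 (1.53, against 0.96 and 1.03), Rad50 to Nbn (0.56, against 0.38 and 0.32) and Atm to Chek2. The ratio spanned less than both genes for Fancd2 to Fanci, Brca1 to Bard1 and Brca2 to Palb2. For Mre11a to Rad50, Fancb to Fancl, Fanca to Fancg and Rad51d to Xrcc2 its span lay between those of the genes.

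**Figure D4:**
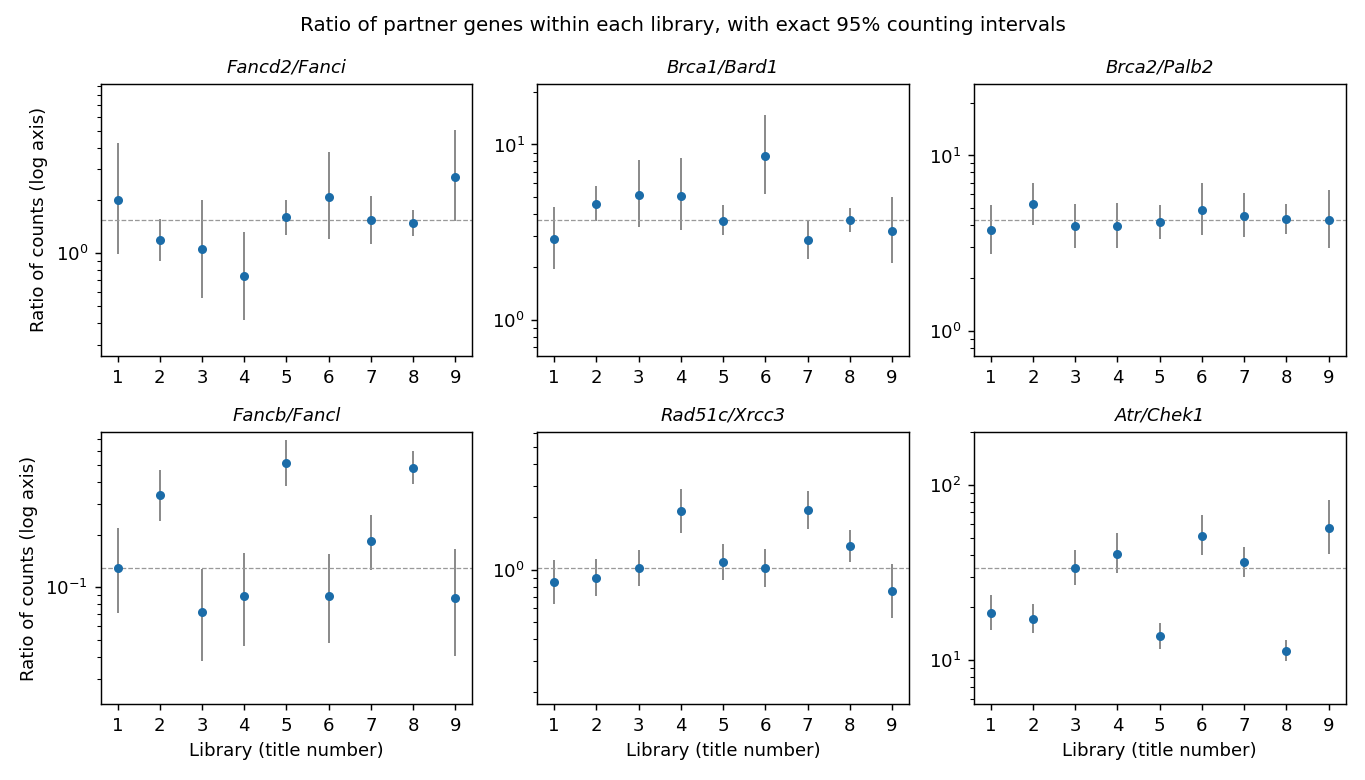
Ratio of counts of 6 partner pairs within each library (y axis, log scale of equal width in each panel, dashed line at the pair's median; x axis, title number), with exact 95% intervals. Brca2/Palb2 is flat, Brca1/Bard1 stands out in L6, Rad51c/Xrcc3 in L4 and L7, and Atr/Chek1 is lowest in L5 and L8.

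The genes were also placed in the genome (GENCODE M21 on GRCm38, the build of the submitters' notes). All values sum over a gene's exons. Brca1 (ENSMUSG00000017146) lies on chromosome 11 at 101488764 to 101551955, minus strand, and Brip1 (ENSMUSG00000034329) on chromosome 11 at 86058138 to 86201193. Bard1 (ENSMUSG00000026196) lies on chromosome 1 at 71027498 to 71103146, Brca2 (ENSMUSG00000041147) on chromosome 5 at 150522630 to 150570329, and Rad54l (ENSMUSG00000028702) on chromosome 4 at 116094264 to 116123690. Fancd2 (ENSMUSG00000034023) lies on chromosome 6 at 113531682 to 113597017, Fanci (ENSMUSG00000039187) on chromosome 7 at 79391929 to 79450264, and Fanca (ENSMUSG00000032815) on chromosome 8 at 123268300 to 123318576. All of these are protein-coding.

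Many of the genes share a start region with a neighbour read in the opposite direction. For 12 of the 33 (36.4%) a protein-coding gene on the other strand started within 1000 bases, against 17.3% of 13261 genes tested and annotated. Of these, 11 neighbours could be tested, and 1 of the 11 was variable, against 30.9% of all genes and 15.1% of those at 20 CPM or more, so their count is near the background. The other 10 had ranges of 0.19 to 0.59 on the log2 scale. Fancd2 ranged over 3.76 on that scale, whereas Emc3, whose start lies 30 bases away, ranged over 0.26 (103 to 123 CPM). Brca1 ranged over 2.63 and Nbr1, 194 bases away, over 0.19 (211 to 240 CPM). Rad54l and Fancb likewise faced the neighbours of narrow range Pomgnt1 (0.26) and Mospd2 (0.34). In 7 of the 11 pairs the repair gene was variable and in none of these was the neighbour. The variable neighbour was Gas2 (0.694 to 1.52 CPM), beside the level Fancf.

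**Figure D5:**
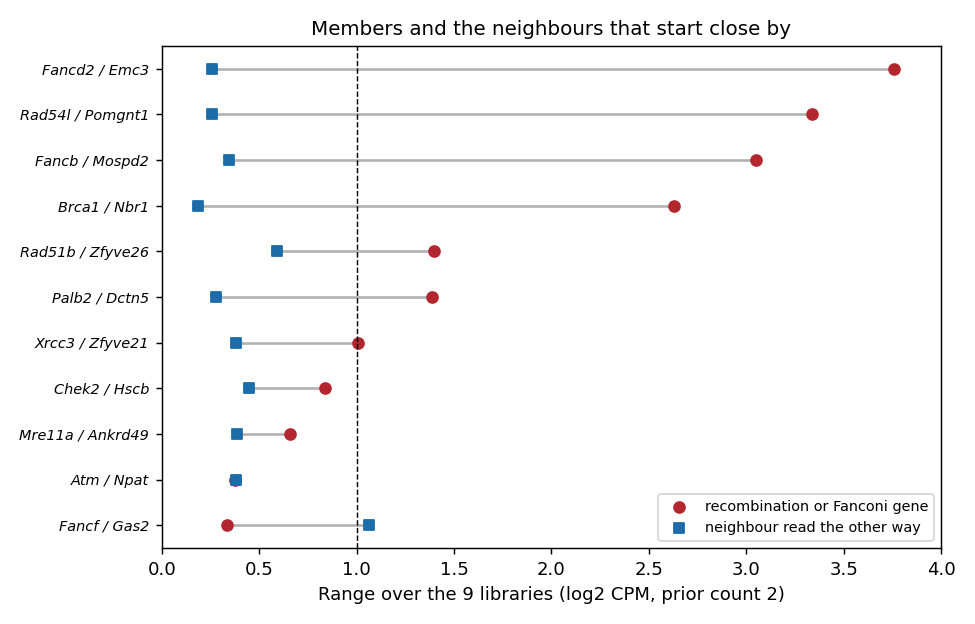
Range over the 9 libraries (x axis, log2 CPM; dashed line at 2-fold) of 11 members (circles) and of the neighbour that starts within 1000 bases on the other strand (squares). The first 7 pairs join a variable repair gene to a neighbour of at most 0.59, and in Fancf/Gas2 the order is turned.

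In 16 of the 33 (48.5%, against 32.1% of genes tested) some exon sequence overlaps a gene on the other strand, whose reads are separable only if strand was used. Opposite 4 variable members a tested protein-coding gene overlapped and was not variable, namely Polg (47.1 to 59.8 CPM) opposite Fanci, Zfp276 (19.8 to 26.2 CPM) opposite Fanca, Lrrc41 (67.7 to 75.3 CPM) opposite Rad54l and Klc1 (99.8 to 115 CPM) opposite Xrcc3.

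Promoter sequence was compared because many of the genes shared an order of libraries. RefSeq windows on GRCm38.p6, from 250 bases before to 50 after each start, were found for 26 of the 33 genes. The search covered both strands for an E2F motif, the site of factors that switch on S phase genes (TTTCCCGC, TTTGGCGC, TTTCGCGC or TTTGCCGC), for a cell cycle homology region (TTTGAA or TTCGAA) and for a CCAAT box (CCAAT). The motifs do not contain one another. An E2F motif stood in 5 of the 26 genes (19.2%), against 2.60% of 27025 genes in the promoter table. These 27025 genes, the background for every motif, were not filtered by level as the genes tested were, so the shares compare unlike sets. The E2F motif stood in 3 of the 17 variable genes with a window (Brca2, Bard1 and Fancg) and in 2 of the 9 that were not variable (Chek2 and Rad51c). A CCAAT box stood in 17 of 26 (65.4%, against 41.1% of all), and a cell cycle homology region in 3 of 26 (11.5%, against 21.7%). The latter 3 were Bard1, Rad51b and Atr, that is 3 of the 17 variable genes (17.6%) and 0 of the 9 that were not variable. A match is a run of letters and not a site shown to be bound.

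The E2F matches are shown first because they fall on genes called variable (Brca2, Bard1 and Fancg) and on genes that missed the 2-fold mark (Chek2, 1.79-fold, and Rad51c, 1.94-fold). Each line runs 5′ to 3′ on the gene's own strand, outside annotated exons except for the last 3 bases of Rad51c, which lie past its start in an annotated exon and within the match, and for the 30-base stretches. The lines carry E2F motifs and CCAAT boxes (or their reverse complements GCGGGAAA and ATTGG) in capitals. The stretches are Brca2 at chr5:150522371-150522620 (plus strand), Bard1 at chr1:71103147-71103222 (minus), Chek2 at chr5:110839778-110839978 (plus), Rad51c at chr11:87404952-87405064 (minus) and, as 30 bases around a match within an annotated exon, Fancg at chr4:43010335-43010364 (minus) and a second Rad51c match at chr11:87404477-87404506 (minus), in the window of another start.
Brca2: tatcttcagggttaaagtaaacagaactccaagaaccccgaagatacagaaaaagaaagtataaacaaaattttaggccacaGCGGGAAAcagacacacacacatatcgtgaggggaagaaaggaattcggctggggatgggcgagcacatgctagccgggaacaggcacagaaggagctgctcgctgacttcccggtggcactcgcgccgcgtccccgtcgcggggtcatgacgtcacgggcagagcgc
Bard1: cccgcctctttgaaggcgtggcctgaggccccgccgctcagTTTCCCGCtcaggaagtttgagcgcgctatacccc
Chek2: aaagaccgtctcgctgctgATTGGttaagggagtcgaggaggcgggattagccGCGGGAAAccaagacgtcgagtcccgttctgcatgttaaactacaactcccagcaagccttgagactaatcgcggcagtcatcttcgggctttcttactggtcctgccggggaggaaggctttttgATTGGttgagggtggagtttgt
Rad51c: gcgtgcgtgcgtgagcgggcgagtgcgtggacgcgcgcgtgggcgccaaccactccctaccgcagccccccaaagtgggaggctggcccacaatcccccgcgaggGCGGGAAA
Rad51c, 30 bases in an exon: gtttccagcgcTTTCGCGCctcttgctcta
Fancg: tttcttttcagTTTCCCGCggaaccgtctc

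Brca1, Brip1 and Fanca, with ranges of 2.63, 3.29 and 2.51 on the log2 scale, held none of the 4 E2F spellings in their windows, but each held at least 1 CCAAT box. They are shown as genes of wide range without such a match: Brca1 at chr11:101551956-101552148, Brip1 at chr11:86201194-86201369 and Fanca at chr8:123318577-123318826, all on the minus strand.
Brca1: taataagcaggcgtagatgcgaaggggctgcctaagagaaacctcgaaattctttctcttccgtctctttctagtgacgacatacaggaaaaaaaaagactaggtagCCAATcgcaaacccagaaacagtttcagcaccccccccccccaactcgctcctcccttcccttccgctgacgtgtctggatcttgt
Brip1: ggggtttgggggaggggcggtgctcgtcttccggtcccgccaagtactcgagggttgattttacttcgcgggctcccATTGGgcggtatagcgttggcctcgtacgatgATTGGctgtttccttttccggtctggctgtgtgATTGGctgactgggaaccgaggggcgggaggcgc
Fanca: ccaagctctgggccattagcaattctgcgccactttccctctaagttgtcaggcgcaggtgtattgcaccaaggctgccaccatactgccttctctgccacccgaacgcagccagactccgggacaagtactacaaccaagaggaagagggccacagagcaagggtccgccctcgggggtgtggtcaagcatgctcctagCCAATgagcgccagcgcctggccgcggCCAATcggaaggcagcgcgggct

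In Brip1 the 3 capital runs, reverse complements of the CCAAT box, begin 99, 67 and 34 bases before the start. Fanca has 2, at 50 and 23 bases, and Brca1 has 1, at 86 bases. A CCAAT box also stood in 6 of the 9 genes with a window that were not variable, Slx4 and Atm among them.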

How the data were processed

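For 9 polyA RNA libraries the authors deposited a single table of RSEM expected counts, already whole numbers and not normalised. STAR 2.7.8a and RSEM 1.3.3, after trimming by cutadapt 2.3, are listed with GRCm38 in the submitters' processing notes. Annotation release and strand setting: not given in the sources used here. Reads that match more than 1 gene are shared out by RSEM. Of 55492 rows, 5 are not mouse genes and were left out. All 9 count columns matched 1 title each, and 0 were left unmapped.

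Counts were scaled with TMM factors (edgeR 4.0.16, R 4.3.3). Genes with a mean of at least 0.5 CPM were tested (13279 genes, all 33 members). The log2 CPM used a prior count of 2. The chi-square test of dispersion ran over all genes (Python 3.11.15, scipy 1.17.1). It was checked on simulated Poisson counts in which some genes were changed in a single library. That setting holds no other scatter between libraries, so the check does not give the error rate of the call in these data. With no groups, edgeR's quasi-likelihood test and DESeq2 had no coefficient to test. The scatter between libraries may be technical. Intervals are exact 95% intervals for counting error only, and the floor of 3 counts was 0.0754 to 0.160 CPM. Highest and lowest libraries were picked by their values, and the intervals make no allowance for that. The interval of such a ratio can thus exclude 1 in a gene that fails the dispersion test, as in Fancf (1.05 to 1.52). The members and lists were chosen with earlier results of these data known. All 9 values are given for the 2 variable members of widest range in each role and for the best expressed member, per kilobase, that was not variable; the other members named with values, such as Brca1 and Fance, were chosen after their values were seen. Of 50 further pathway symbols 1 was not found. Alternatives covered scaling, filter, prior count, allowed noise, threshold and each library left out.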

Additional observations from a re-analysis of the deposited data

Results flagged for a closer look

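Across the 9 libraries, 1 of the 33 genes had a library that stood apart by Dixon's ratio on log2 CPM. Fance in L9 (14.8 CPM, against 22.1 to 31.5 CPM in the other 8) lay below its nearest neighbour by 0.533 of the whole range, above Dixon's 95% critical value for 9 samples. Chance flags about 1 in 20 such sets, and the 9 libraries are of mixed and unknown kind. L9 also had the lowest total. Whether either bears on the value was not tested.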

How the results depend on the processing

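Over 18 alternatives, the count of variable genes among the 33 ran from 17 to 20 with a library left out, 18 with RLE size factors, and reached 26 with a threshold of 0.58 on the log2 scale. Of 593 combinations of a member and an alternative, 574 kept the call, 13 lost it and 6 gained it, the 6 all by the lower threshold. Calls were the same in every alternative run for 14 of the 20 variable genes. The other 6 were Xrcc3 (also 0.99 with RLE factors and 0.98 with a prior count of 5), Fancm (0.99 with RLE factors), Rad51b, Fancg, Fance and Atr. With L8 left out, 17 were variable. The median range of the members lay between 1.02 and 1.09 with a library left out. In those runs 21 to 23 members were highest in L8 (no value without L8). L2, L5 and L8, or those of them kept, lay above the rest in 17 to 19. Apart from small changes in scaling, leaving out a library cannot lower either count, so these runs do not test them. Over the other alternatives 20 to 23 members were highest in L8. L2, L5 and L8 lay above the rest in 17, or in 16 with a mean of at least 1 CPM, where 32 members were tested. Variable genes over the whole table numbered 3715 to 4022 with a library left out, 6412 of 27105 without a filter and 7810 with the lower threshold, which follow from more genes tested and a lower mark. The ratios of partners without each library were added after the data were seen. No paired analysis was possible because the labels give no library a group. Depth limits the faint genes: Fancb and Rad51b had 10 counts in L9 and Fancd2 22 in L3.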
